A study of Mus musculus with 60 samples.

Results

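The genes described here belong to the families of enzymes and remodelling proteins that act on chromatin. They were chosen by symbol: every gene of the deposited gene table whose symbol begins with Chd and a digit, Arid, Kdm, Kmt, Smarc, Setd, Hdac or Ncor, together with Ash1l, Trrap and Ep400. This gave 74 of the 9066 genes of the table and 1935 of its 114691 exon rows. The families held 15 Kdm, 12 Smarc, 9 Chd, 9 Hdac, 8 Arid, 8 Kmt and 8 Setd genes, and the rest were Ncor genes and the 3 genes named singly. A further 15 annotated symbols that meet the rule were not in the table used here, among them Hdac1, Hdac10, Smarcd2, Kdm8 and the Y-linked Kdm5d. The paper kept 9066 genes for its networks, leaving out those under 500 average counts and those whose exons were all weakly connected. The table has this number of genes, although 15 members average under 500 in it. Comparisons with other genes are within this set, and absence from it does not show a lack of expression. The libraries were polyA RNA-seq of striatum dissected by hand, 1 library for each of 60 mice of the HS-CC, a stock formed from the inbred founder strains of the Collaborative Cross, and these animals came from generations bred selectively for their response to haloperidol. Catalepsy, in which an animal stays rigid and does not move, had been scored as present or absent: 13 of the 28 females and 17 of the 32 males were non-responders, and the other 15 of each sex were responders. The labels give no age, dose or interval after a drug for any group, no genotype of single mice and no family of origin.

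Chromatin is opened and closed by enzymes that write and erase marks on histone tails and by motors that move nucleosomes. Lysine methyltransferases of the KMT and SETD families add methyl groups, lysine demethylases (KDM) remove them, histone deacetylases (HDAC) remove acetyl groups, and the SWI/SNF (BAF) and CHD proteins use ATP to slide or evict nucleosomes. NCOR proteins carry HDAC3 to silenced genes, while TRRAP and EP400 are parts of the TIP60 acetyltransferase complex. Many of these genes, such as CHD8, ARID1B, SETD5, ASH1L and KDM5C, are known causes of human neurodevelopmental disorders when mutated.

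The deposited gene value is a read count multiplied by an upper quartile factor for each library. The reads recovered from it were between 4913122 and 21872744 per mouse, with 17 mice at or under 9507322 (numbers 26 and 41 to 56) and 43 at or over 12051239; these are called the shallower and the deeper libraries. For each mouse a 3' bias was taken from the 5140 genes outside the families with enough exon rows, as the median slope of log2 exon values from the first to the last exon against the mean of all mice. It was between -0.338 and 0.963 in 59 mice, and 1.57 in mouse 63, a female responder; the next strongest were mouse 5 at 0.963, mouse 4 at 0.719 and mouse 62 at 0.499. The shallower libraries had a median bias of -0.27 and the deeper ones of 0.0087. The labelled tissue was checked with markers of striatal projection neurons, of which 8 of 10 were in the table; their summed value had a median of 109320 in responders and 105620 in non-responders. In bulk tissue, fewer cells of a type and less RNA per cell cannot be told apart. Sex was checked with X-linked genes only, since none of the 4 listed sex markers, Xist, Ddx3y, Eif2s3y and Uty, was in the table; the labelled sexes of mice 33 to 37 stand apart in this check, as given with the sex comparison.

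All 74 genes were measured in striatum at an average value of at least 10, and 59 of them averaged at least 500. Their median value was 1184, against 695 over the 8535 genes that passed this minimum. Their exons are long, with a median of 8.75 kb of merged annotated exon against 5.22 kb, and on an RPKM scale, reads per kb of merged exon scaled to the recovered reads of the library, the members were close to other genes, with a median level of 9.56 against 10.7 over the 8394 tested genes with a length. By this scale 32 of 74 lay above the median of the tested genes.

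Chd3, an ATPase of the NuRD remodelling complex, had the highest level of all members, at 100.2 ± 12.3 RPKM (SD, n = 60). Hdac11, the single class IV deacetylase, followed at 73.4 ± 10.9, and after it came the BAF subunits Smarcd1 at 64.1 ± 8.99 and Smarcc2 at 56.7 ± 3.71. The ranges of Hdac11 and Smarcd1 at 1 SD overlapped, as did those of Smarcd1 and Smarcc2. The other NuRD ATPases were next, Chd4 at 35.5 ± 4.22 and Chd5 at 32.9 ± 5.38, and differed by less than their spread. At the low end stood Arid3b at 1.45 ± 0.319, Kdm2b, a demethylase of H3K36 that recruits Polycomb, at 1.78 ± 0.353, Arid3a at 1.95 ± 0.26, the class IIa deacetylase Hdac4 at 1.99 ± 0.572 and Setd1a at 2.07 ± 0.462. These 5 genes did not differ from their neighbours in the order beyond the spread over mice. These levels depend on the length used: per kb of the longest annotated transcript Chd3 was at 116.5 and Hdac11 at 106.4, and at the low end Arid3b was at 2.77, Kdm2b at 3.73 and Hdac4 at 3.88.

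**Figure D1:**
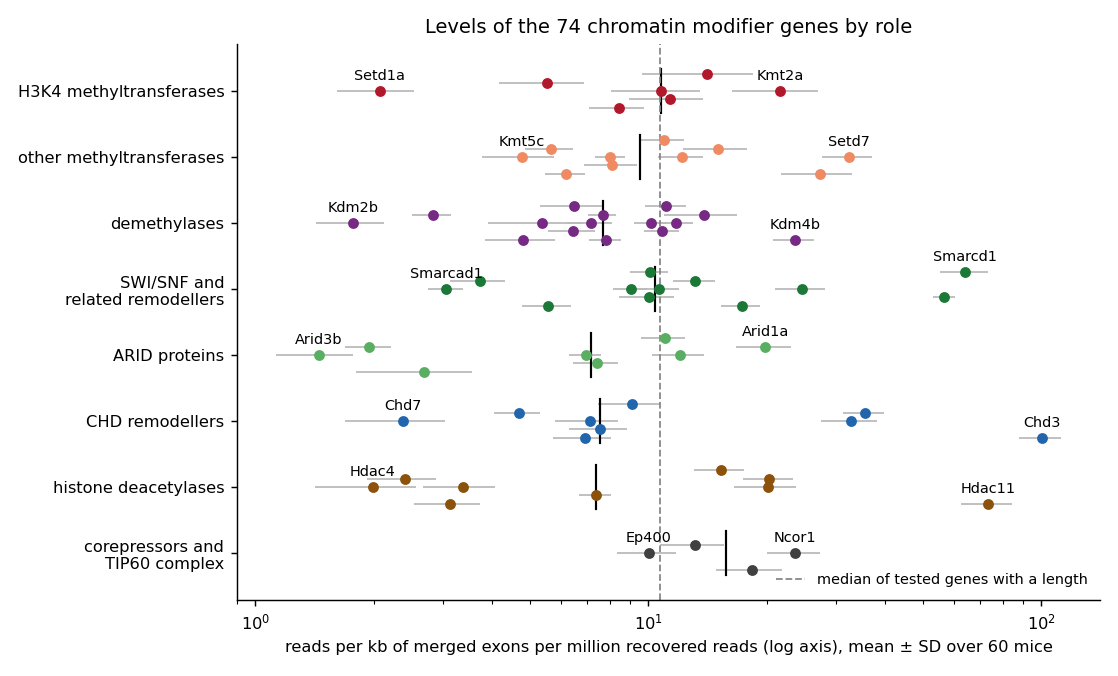
Level of each of the 74 genes, in reads per kb of merged exons scaled to recovered reads (RPKM) on a log axis, by role; points are means over 60 mice with SD, black ticks the median of a role and the dashed line the median of the tested genes. Chd3 at 100.2, Hdac11 at 73.4, Smarcd1 at 64.1 and Smarcc2 at 56.7 stand to the right of the other members, and Arid3b at 1.45 is lowest.

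Paralogous members kept or changed their order over mice. Among alternative ATPases of SWI/SNF, the level of Smarca2 was 0.702 times that of Smarca4 in the median mouse, with a lowest ratio of 0.607 and a highest of 0.856. Arid1a, a large BAF subunit, stood above its paralogue Arid1b in every mouse, by 1.65 times in the median mouse and by 1.42 at the least. Smarcc2 exceeded Smarcc1 in all mice, since the ratio of Smarcc1 to Smarcc2 was between 0.126 and 0.239. The same held for Smarcd1 over Smarcd3, with a median ratio of 6.57. The demethylases Kdm6a and Kdm6b, which act on H3K27, had a ratio from 0.786 to 2.0, so that their order changed between mice.

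Variation over mice differed widely among the members. The coefficient of variation of the deposited value had a median of 0.156, against 0.163 over all tested genes. Smarcc2 was the steadiest, with a coefficient of 0.0647 and values from 3712 to 4984 around a median of 4363. Smarcb1, a core BAF subunit, followed at 0.0933, with 782 in the lowest mouse, 997 in the median and 1220 in the highest. Arid4b at 0.0956, Kmt5b, which methylates H4K20, at 0.096 and the H3K9 demethylase Kdm3b at 0.0974 were next. The most variable were Arid5b at 0.34, the H3K4 methyltransferase Kmt2d at 0.328, Hdac4 at 0.305, Kdm7a at 0.283 and Chd7 at 0.281. Arid5b was between 68.5 and 842 around a median of 375, and Kmt2d between 974 and 6568 around a median of 3590. In Arid5b, Kmt2d, Hdac4, Kdm7a and Chd7 the lowest value was that of mouse 63.

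The 3' bias of the mouse moved with most members. With limma on log2(value + 1), and sex and response in the model, 61 of 74 genes had a slope on the bias at adjusted p under 0.05 (Benjamini-Hochberg over all tested genes). Over all tested genes this share was 76.8%, so the members' share of 82.4% was near the background. The direction was uneven among the members: 51 fell as the bias rose and 10 rose, whereas of all tested genes 37.2% fell and 39.6% rose. The median slope was -0.42 over the members and 0.00 over all tested genes, in log2 units per unit of bias. The bias was measured from exon rows of genes outside the families.

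H3K4 methyltransferases fell together. Each of the 7 genes of the KMT2 and SETD1 type fell, with a median slope of -1.30 and a range from -1.45 to -0.59. Kmt2d had a slope of -1.45 (SE 0.11, adjusted p = 2e-17) and Kmt2e, a family member without known methyltransferase activity, of -1.42 (SE 0.07, adjusted p = 2.3e-27). Kmt2a, the mixed lineage leukaemia gene (ENSMUSG00000002028, chr9:44803355-44881296 in GRCm38, minus strand), was between 1416 and 8462 over all mice, and its values in mice 63, 62, 5 and 4 were 1416, 2061, 2218 and 2232, against a median of 4926 in the mice other than mouse 63. These 4 mice held its 4 lowest values.

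The ARID and CHD genes and the corepressors also fell as the bias rose: 8 of 8, 9 of 9 and 4 of 4, with median slopes of -0.50, -0.63 and -0.79. Among them were Chd8 at -0.78 (SE 0.08), Arid1b at -0.69 (SE 0.07), Ncor1 at -0.86 (SE 0.06), Trrap at -0.80 (SE 0.09) and Ep400 at -0.76 (SE 0.08). Of the other methyltransferases 6 of 10 fell, with Ash1l, which methylates H3K36, at -1.27 (SE 0.07) and Setd5 at -0.60 (SE 0.06), while 2 rose. Of the demethylases 11 of 15 fell, none rose and 4 were not called. The steepest slope of all members was that of Kdm7a, a demethylase of H3K9 and H3K27, at -1.84 (SE 0.09, adjusted p = 7.9e-27); its value was 88.8 in mouse 63 against a median of 742 in the other mice and a lowest of 193.

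Of the 10 members that rose, 3 were deacetylases and 5 were Smarc genes. Hdac3, the deacetylase of the NCOR complexes, rose with a slope of 0.44 (SE 0.05, adjusted p = 7.1e-12), and its value was 1319 in mouse 63 against a median of 847 in the other mice and a highest of 1229. Hdac2, a class I deacetylase, rose with 0.41 (SE 0.06), Setd6 with 0.31 (SE 0.07), Smarcd1 with 0.30 (SE 0.07) and Smarce1 with 0.27 (SE 0.06). Of the 12 SWI/SNF and related genes 5 rose and 4 fell, and of the 9 deacetylases 3 rose and 2 fell, the 2 being Hdac4 at -1.63 and Hdac9 at -0.38. Smarcc2, with a slope of -0.03 (SE 0.04), was not called.

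**Figure D2:**
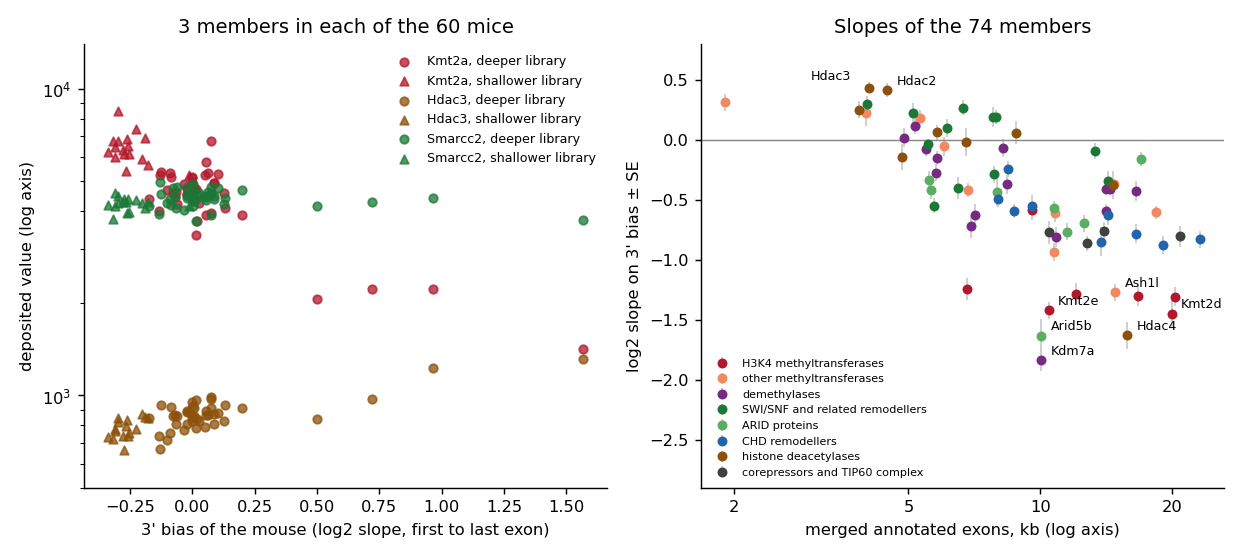
Left, deposited value on a log axis of Kmt2a, Hdac3 and Smarcc2 in each of the 60 mice against the 3' bias of the mouse, with circles for the 43 deeper and triangles for the 17 shallower libraries; Kmt2a is at 1416 and Hdac3 at 1319 in the mouse of strongest bias. Right, log2 slope on the bias with SE of the 74 members against the length of their merged exons on a log axis, coloured by role; the members of 8.78 kb or more have a median slope of -0.76.

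The slope went with the length of the gene's exons. Over the 74 members the correlation of the slope with log2 of merged exon length was -0.66 (Pearson) and -0.71 (Spearman), beside -0.38 and -0.64 over the 8394 tested genes; genes are not independent replicates, and all share the same 60 libraries. In the shorter 37 members, from 1.9 to 8.72 kb, the median slope was -0.07 and 22 were negative. In the longer 37, from 8.78 to 23.1 kb, it was -0.76 and 36 were negative.

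Mouse 63 alone was the lowest of the 60 mice for 42 of the 74 members and the highest for 8. Counts of this kind are not given here for the other tested genes. Relative to the median of the other 59 mice, the value in mouse 63 was 0.64 times in the median member, against 1.01 times over the tested genes. By this measure 56 of 74 members were lower, against 49.5% of the tested genes. The ratio was 0.12 for Kdm7a, 0.159 for Hdac4, 0.183 for Arid5b and 0.199 for Kmt2e, and it was 1.74 for Smarca5, the ISWI ATPase, and 1.56 for Hdac3. In mice 5, 4 and 62 the median member stood at 0.782, 0.761 and 0.731 times the median of the mice outside these 4. Without mouse 63 the slope was called for 59 members, of which 51 fell, against 70.2% of all tested genes called. Without all 4 mice it was called for 44 members, of which 42 fell and 2, Hdac2 and Hdac3, rose, against 40.4% of all tested genes called and 21.7% falling. Smarcd1, Smarce1, Setd6, Hdac11 and Chd3 were among those no longer called, with adjusted p from limma of 0.071, 0.283, 0.63, 0.187 and 0.648.

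The exon rows of the members showed the same mouse. The rows before the middle of a member's row order, called its 5' part, held 22.9% of its summed exon value in the median of the other mice and 7.43% in mouse 63, taking the median over members, and this share was lower in mouse 63 for 72 of 74 members. For 64 members it was below every other mouse. Mouse 63 also had the strongest 3' bias over the 5140 genes outside the families, and such shares are not given here for those genes. In Ash1l, 13 of 27 rows make the 5' part, and they held 16.7% of its value in mouse 63, against 31.5% to 73.7% and a median of 65.5% in the others. The last row of Kmt2d held 66% in mouse 63, against 9.78% to 46.4% in the others. Exceptions were Hdac9 and Setd1a, whose 5' part had a larger share in mouse 63 than in the median of the others. For Hdac9 this share was 80.5% against a median of 78.3%.

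Most members were higher in the shallower libraries. The median of the 17 shallower libraries was above that of the 43 deeper ones for 60 of 74 members, with a median difference of 0.18 (log2), against 45.3% of the tested genes and -0.02. Kmt2d was between 3804 and 6568 in the shallower libraries, with a median of 5437, and between 974 and 4764 in the deeper ones, with a median of 3315. The difference had the opposite sign in Hdac2, with medians of 1073 and 1292. The shallower libraries also had the more negative bias, and the separate parts of depth and bias in the levels were not tested beyond the following fits. With log2 recovered reads in the model 59 of 74 members were called for the bias, beside 6257 of 8535 tested genes. Within the deeper libraries 59 members and 5854 tested genes were called. Within the 17 shallower libraries, where the bias ran from -0.338 to -0.0149, no member and 69 tested genes were called. In that last fit 10 members and 735 of the 8535 tested genes had an unadjusted p under 0.05.

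Levels of different members were correlated over mice. The median Pearson correlation of the 2701 pairs was 0.286, against 0.00011 over the 36418845 pairs of all tested genes, and 36.1% of the member pairs were above 0.5, against 12%. All these correlations share the 60 libraries, their depth and their 3' bias. After each gene's regression on the bias the median was 0.262, with 25.4% above 0.5 against 6.21% over all tested genes. The median was 0.301 in the 30 responders and 0.311 in the 30 non-responders, and 0.299 in the responders without mouse 63.

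The pairs of highest correlation were Kmt2a with Kmt2c at 0.963, Ash1l with Kmt2e at 0.955, Kmt2e with Setd2, which trimethylates H3K36, at 0.955, Ash1l with Setd2 at 0.951, and Chd6 with Chd8 at 0.949. After removal of the bias these were 0.903, 0.84, 0.9, 0.877 and 0.891, and in the deeper libraries alone 0.954, 0.946, 0.93, 0.937 and 0.95. By role, the H3K4 methyltransferases had the highest median, 0.892 over 21 pairs, and 0.718 after removal of the bias. The corepressors and TIP60 subunits followed with 0.846 over 6 pairs. The deacetylases had a median of -0.044 over 36 pairs. Trrap and Ep400, which share the TIP60 complex, correlated at 0.935, and Hdac3 with its partner Ncor1 at -0.591, which became 0.209 after removal of the bias. Chd3 with Chd4 stood at -0.106 and at -0.542 after removal.

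The members most like the rest were Chd8, a remodeller tied to autism, whose correlations with the other members had a median of 0.747, Trrap at 0.703, the H3K36 demethylase Kdm2a at 0.702, Kmt2a at 0.702 and Setd2 at 0.699. Those least like the rest were Hdac2 at -0.451, the BAF subunit Smarcd3 at -0.374, Hdac11 at -0.355, Hdac3 at -0.334 and Smarce1 at -0.281. After removal of the bias Chd8 was still the highest, at 0.58, and the lowest were Chd3 at -0.274, the class IIa deacetylase Hdac5 at -0.261 and Smarcd3 at -0.241.

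**Figure D3:**
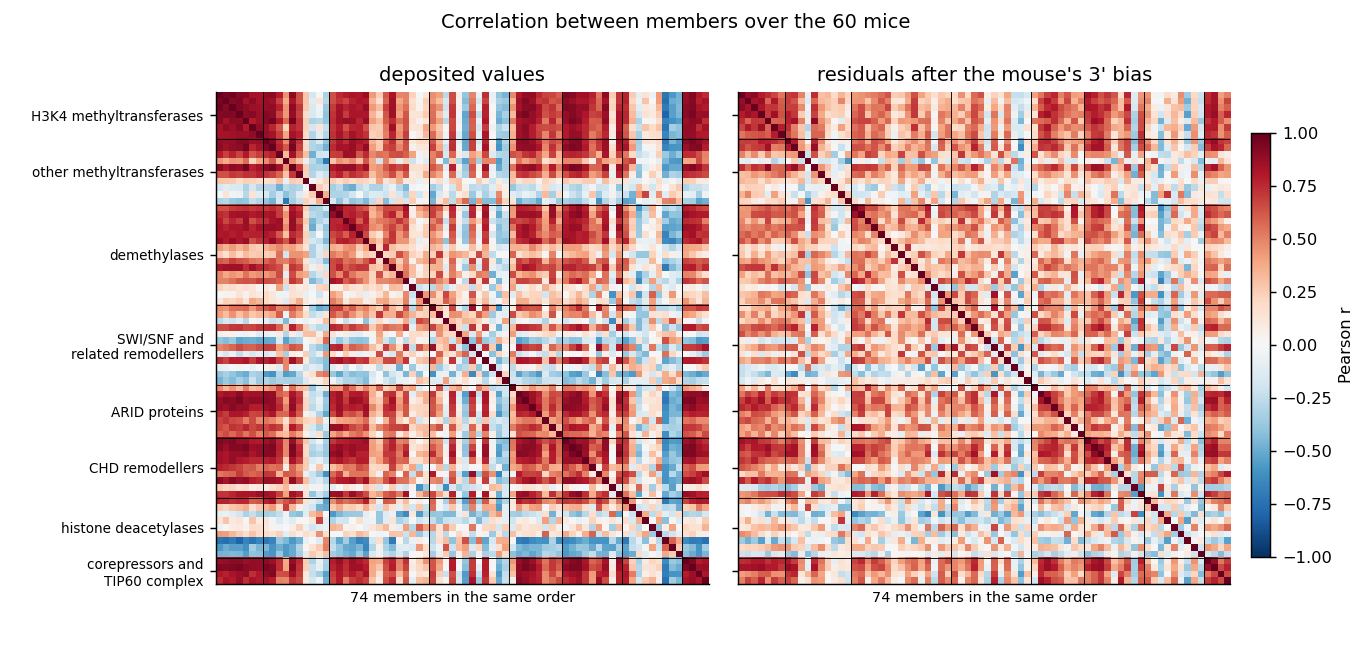
Pearson correlation over 60 mice between all pairs of the 74 members, from -1 in blue to 1 in red, ordered by role and within a role from the longest to the shortest exons; left, deposited values, with a median of 0.286, and right, residuals after the 3' bias of the mouse, with a median of 0.262. The H3K4 methyltransferases, the CHD genes and the corepressors form red blocks in both panels, and the blue bands of the left panel, among them Hdac2 and Hdac3, are paler on the right.

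Promoter sequences are shown for 4 members that were chosen after their values were seen. Kmt2c and Kmt2d had a correlation of 0.946, and Hdac2 had one of -0.752 with Kmt2d. Kdm6a was the member with the smallest adjusted p by sex. Each sequence is the 250 bases before the RefSeq transcript start in GRCm38.p6, read 5' to 3' on the strand of the gene, and overlaps no annotated exon. Capitals mark matches to GGGCGG, the GC box, on either strand. Kmt2c lies at chr5:25498784-25499033 (minus), Kmt2d at chr15:98871206-98871455 (minus), Hdac2 at chr10:36974294-36974543 (plus) and Kdm6a at chrX:18162325-18162574 (plus).
Kmt2c: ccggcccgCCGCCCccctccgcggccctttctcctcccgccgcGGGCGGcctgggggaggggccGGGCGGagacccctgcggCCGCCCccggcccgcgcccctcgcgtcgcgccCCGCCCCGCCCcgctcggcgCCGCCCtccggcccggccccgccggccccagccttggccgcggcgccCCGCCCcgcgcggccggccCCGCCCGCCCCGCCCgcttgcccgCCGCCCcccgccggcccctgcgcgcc
Kmt2d: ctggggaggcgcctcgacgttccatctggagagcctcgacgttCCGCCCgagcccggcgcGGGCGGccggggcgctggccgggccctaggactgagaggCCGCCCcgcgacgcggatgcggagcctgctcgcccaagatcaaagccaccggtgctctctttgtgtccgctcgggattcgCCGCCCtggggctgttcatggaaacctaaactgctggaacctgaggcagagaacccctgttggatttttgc
Hdac2: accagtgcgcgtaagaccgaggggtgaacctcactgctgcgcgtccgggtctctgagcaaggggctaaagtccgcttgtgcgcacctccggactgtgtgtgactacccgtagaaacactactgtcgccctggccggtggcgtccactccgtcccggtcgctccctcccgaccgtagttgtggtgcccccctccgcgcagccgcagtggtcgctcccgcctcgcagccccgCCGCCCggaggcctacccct
Kdm6a: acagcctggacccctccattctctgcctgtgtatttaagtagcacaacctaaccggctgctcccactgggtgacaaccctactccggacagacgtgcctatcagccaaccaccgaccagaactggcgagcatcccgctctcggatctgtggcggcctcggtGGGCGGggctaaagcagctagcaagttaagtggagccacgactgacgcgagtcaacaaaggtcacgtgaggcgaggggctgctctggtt
The motif, with overlapping matches counted singly, occurred 12 times in the window of Kmt2c, 4 times in that of Kmt2d, and once each in those of Hdac2 and Kdm6a. Windows were listed for 55 of the 74 members. The motif was in 51 of their 76 windows (67.1%), beside 58.8% of the 8429 windows of tested genes and 32.7% of all 32841 windows. The members' windows had a median of 21 CpG dinucleotides, against 16 for tested genes. The match is a description of letters, and binding was not measured.

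Catalepsy response did not separate the members at the threshold. With limma on log2(value + 1) and sex in the model, 0 of 74 members were called for responders against non-responders, while 9 of 8535 tested genes were (0.105%). At an unadjusted p under 0.05 there were 2 members and 554 of the 8535 tested genes. The counts of called members were also 0 with edgeR and with DESeq2 on recovered reads (0.082% and 0.269% of the tested genes called). Each had 2 members at an unadjusted p under 0.05, beside 556 and 579 tested genes. The fitted differences of the members ran from -0.11 to 0.13 (log2, responder minus non-responder), 72 of 74 were within 0.1, and the 95% interval reached a median of 0.12 to each side. Across members the intervals reached from -0.35 to 0.37.

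Smarca5, the ATPase of the ISWI remodellers, had the largest difference, 0.13 (95% interval 0.02 to 0.23, adjusted p = 0.541). Its value was 316 in the lowest responder, 407 in the median and 672 in the highest, which was mouse 63, and 285, 375 and 499 in non-responders. The groups overlapped over most of their range. Smarcd3, a BAF subunit of neurons and muscle, had a difference of -0.11 (-0.21 to 0.00, adjusted p = 0.764), with 512, 691 and 869 in responders and 477, 729 and 913 in non-responders. Setdb1, an H3K9 methyltransferase, had the next smallest p, with -0.09 (-0.18 to 0.01, adjusted p = 0.899). Kmt2a was at 1416, 5082 and 7381 in responders and at 2061, 4811 and 8462 in non-responders, and Ash1l at 1480, 5668 and 7595 and at 2371, 5531 and 8163; both lowest values of responders were those of mouse 63.

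By role, the median difference by response was between -0.03 for the corepressors and TIP60 subunits and 0.02 for the ARID genes. Members were higher in responders in 30 of 74 cases and lower in 44, beside 4088 of 8535 tested genes higher. Without mouse 63, 47 members and 4291 tested genes were higher. With the 3' bias in the model, 50 members and 4356 tested genes were higher. In that limma fit 8 of 74 members and 927 of 8535 tested genes had an unadjusted p under 0.05. No member and 58 tested genes were called in it. The bias had a median of 0.0049 in responders and -0.028 in non-responders. For the interaction of sex with response, 0 of 74 members and 0 of 8535 tested genes (0%) were called with limma, no member had an unadjusted p under 0.05, and edgeR and DESeq2 called 0 members as well. The smallest unadjusted p was that of Setd6, 0.127 (adjusted p = 1 from limma), with an interaction of 0.15 (log2), followed by Smarcb1 at 0.08 and Smarca5 at -0.11.

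**Figure D4:**
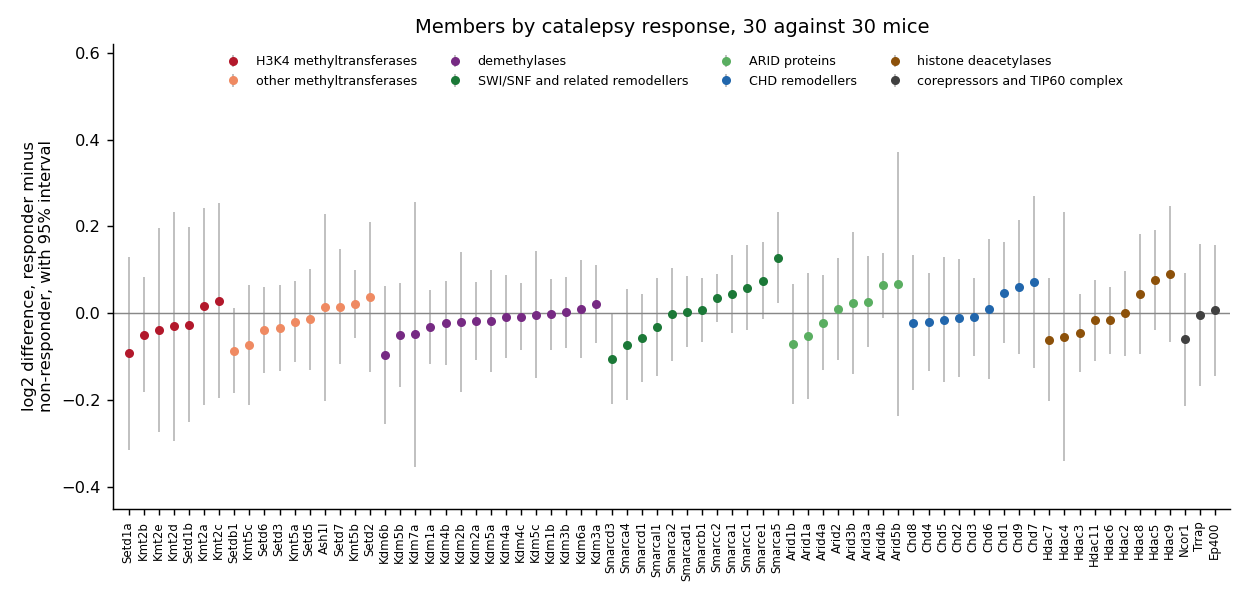
Fitted log2 difference, responder minus non-responder, with its 95% interval for 73 of the 74 members, 30 against 30 mice, coloured by role. Every point lies between -0.11 and 0.13, and the widest intervals are those of Kdm7a, Arid5b and Hdac4.

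The comparison by sex rests on labels that the data put in question for some mice. The labels make odd numbers female and even numbers male in every mouse but 33, 35, 36 and 37. Mice 33, 34, 35 and 37, all labelled male, had Kdm6a values of 748, 848, 841 and 983 and Kdm5c values of 1544, 1695, 1587 and 1526. In the other 28 males Kdm6a was between 494 and 787, with a median of 624, and in the 27 females outside these mice between 536 and 1023, with a median of 884. For Kdm5c these were 727 to 1609, with a median of 1143, and 817 to 2062, with a median of 1546. Mouse 36, labelled female, had Kdm6a at 650 and Kdm5c at 1396. Labels were kept as given. The counts of genes called by sex and the sex differences of Kdm6a and Kdm5c are given with and without mice 33 to 37. This stretch was set by the order of the labels but chosen after the values were seen. Leaving out these mice widens the sex difference of Kdm6a and Kdm5c by construction, so those fits are not separate support for it. Other results by sex, among them exon usage, include these mice unless stated.

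Females had more Kdm6a and Kdm5c than males. Kdm6a (ENSMUSG00000037369, chrX:18162575-18279936 in GRCm38, plus strand) and Kdm5c (ENSMUSG00000025332, chrX:152233020-152274535, plus strand) lie on the X chromosome and are known to be expressed from both X copies in females; Kdm6a (Utx) removes methyl groups from H3K27 and Kdm5c (Jarid1c) from H3K4. With limma and response in the model, 2 of 74 members were called, against 3 of 8535 tested genes (0.0351%), the third of which was Ddx3x, also X-linked. Kdm6a was higher in females by 0.36 (log2, SE 0.06, 1.29-fold, adjusted p = 1.6e-04), with 536, 882 and 1023 in the lowest, median and highest of 28 females and 494, 630 and 983 in 32 males. Kdm5c was higher by 0.39 (SE 0.07, 1.31-fold, adjusted p = 0.0088), with 817, 1544 and 2062 in females and 727, 1160 and 1695 in males. The ranges overlapped for both genes. Without mice 33 to 37, 2 members and again 3 of the tested genes (0.0351%) were called; Kdm6a was higher by 0.43 (SE 0.05, adjusted p = 7.5e-08) and Kdm5c by 0.45 (SE 0.07, adjusted p = 2.4e-04).

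Both genes also had slopes on the 3' bias, of -0.37 (SE 0.08) for Kdm6a and -0.62 (SE 0.09) for Kdm5c. With the bias in the model, the female excess was 0.37 for Kdm6a (adjusted p = 1.3e-06) and 0.40 for Kdm5c (adjusted p = 4.9e-06). Without mice 33 to 37 the same limma model gave 0.44 for Kdm6a (adjusted p = 3.1e-12) and 0.46 for Kdm5c (adjusted p = 5.7e-10). Within the 43 deeper libraries alone neither was called with limma, with 0.31 (adjusted p = 0.42) and 0.33 (adjusted p = 1), and 0% of all tested genes were; both had an unadjusted p under 0.05. Within the deeper libraries without mice 33 to 37 both were called, Kdm6a at 0.40 (adjusted p = 0.0019) and Kdm5c at 0.43 (adjusted p = 0.019), against 0.0234% of all tested genes. These mice were set aside after the values of both genes were seen, so a larger difference without them follows from that choice. Within the 17 shallower libraries Kdm6a was called at 0.50 (adjusted p = 0.0018) and Kdm5c was not, at 0.51 (adjusted p = 0.089), against 0.0117% of all tested genes called. The levels of Kdm5c and Kdm6a correlated over mice at 0.762, and at 0.72 after removal of the bias.

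The other X-linked members were not called by sex. Hdac6, the cytoplasmic deacetylase of tubulin, was at 507, 602 and 714 in females and 449, 582 and 719 in males, with a difference of 0.05 (SE 0.04, adjusted p = 1). Hdac8, a class I deacetylase that acts on cohesin, had a difference of -0.02 (SE 0.07) and Smarca1, an ISWI ATPase, of -0.01 (SE 0.05). Among autosomal members the smallest p was that of Setd7 at 0.12 (SE 0.07, adjusted p = 1).

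**Figure D5:**
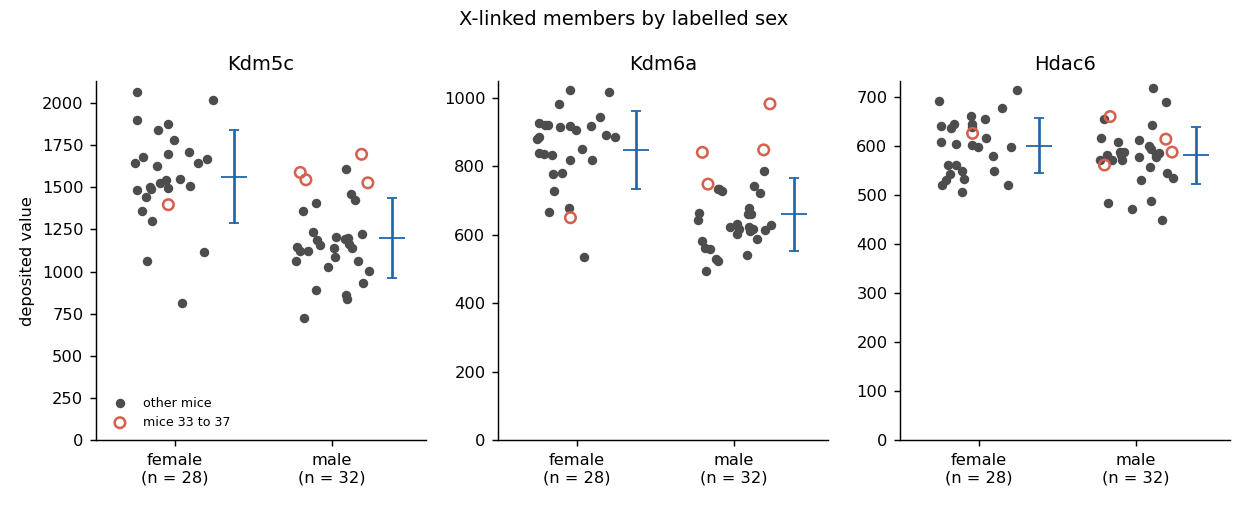
Deposited value of the X-linked members Kdm5c, Kdm6a and Hdac6 by labelled sex, 1 point per mouse, with mean and SD at the right of each group; open red circles are mice 33 to 37. Kdm6a has a median of 882 in females and 630 in males, the 4 red circles labelled male lie between 748 and 983, and Hdac6 has medians of 602 and 582.

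Exon usage was compared within genes, using the 1278 exon rows of members that averaged at least 10. With the gene-level F test of diffSplice in limma, 0 of 74 members differed in exon usage by response, against 32 of 7549 genes tested (0.424%). In this test 4 members and 273 of the 7549 genes had an unadjusted p under 0.05. Since diffSplice treats the exon rows of 1 mouse as independent, its p-values do not measure the spread between mice alone. The smallest p was that of Kdm2b (adjusted p = 0.283), then Hdac11 (adjusted p = 0.692), Smarca1 and Hdac6. With the Simes adjustment of single exon tests 1 of 74 members was called, near the share of 1.23% over all genes tested. This was Kdm2b (adjusted p = 0.016), through its last row, row 35 of 35, which begins at position 123320677 of chromosome 5 in NCBI m37 and was 0.75 higher (log2, relative to the gene) in responders. The row is thinly covered: its value was 7, 15.5 and 34 in the lowest, median and highest responder and 0, 11 and 34 in non-responders, and its share of the gene was 6.32% ± 2.73 (SD, n = 30) and 4.52% ± 2.93 (SD, n = 30). The highest share, 16.8%, was that of mouse 63, the responder of strongest 3' bias, and no other mouse was above 10.9%. The part of the bias in this row was not tested with the Simes adjustment. With each row set against the rest of its gene, an alternative added after seeing the data, the Kdm2b row had an adjusted p of 0.60 in limma. No member row passed, against 0.146% of genes with such a row. With the bias in that model 1 did, against 0.609% of genes: row 31 of 38 of Chd4 at position 125071950 of chromosome 6, at -0.39 (SE 0.09, adjusted p = 0.031), with a share of 0.467% ± 0.16 (SD, n = 30) in responders and 0.588% ± 0.089 (SD, n = 30) in non-responders. This row is thinly covered too. Its value was 8, 17.5 and 36 in the lowest, median and highest responder and 15, 23.5 and 30 in non-responders. Without the bias term its adjusted p from limma was 0.28.

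By sex, 0 of 74 members were called for exon usage with diffSplice, against 1 of 7549 genes (0.0132%). An unadjusted p under 0.05 was found for 1 member, Hdac11, and for 76 of the 7549 genes. With the Simes adjustment 0 members and 0.0795% of genes were called, and 2 members and 157 genes had an unadjusted p under 0.05.

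Some exon rows varied between mice far more than others, after the mouse's bias and depth were regressed out of the log2 share. Over the 497 member rows that averaged at least 50, the SD of this share had a median of 0.17, beside a counting SD of 0.15. The most variable was row 10 of 11 of Smarce1, the BAF subunit with an HMG box, which begins at 99074434 of chromosome 11 in NCBI m37. It held between 2.01% and 20.5% of the gene's value, with a median of 11.5%, and its SD was 0.60 beside a counting SD of 0.21. Its range was from 5.22% to 20.5% in responders and from 2.01% to 18.2% in non-responders, with medians of 11.04% and 11.63%. In row 28 of 29 of Smarcc2, the steadiest gene, the share was between 1.72% and 4.62%, with an SD of 0.31 beside a counting SD of 0.12. Row 49 of 50 of Ncor1 was between 0.621% and 1.94%.

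A list of 116 other chromatin genes, among them acetyltransferases, Polycomb and methyl-CpG proteins, had 86 genes tested. None was called by response, by sex or for their interaction. At an unadjusted p under 0.05 there were 6, 0 and 0, beside 554, 174 and 48 of the 8535 tested genes. For the 3' bias 71 of 86 were called, near the 76.8% of all tested genes, with 50 falling and 21 rising beside 37.2% and 39.6%, and the median slope was -0.18. The steepest were Srcap, the ATPase of a remodelling complex, at -2.45, Gatad2b, a NuRD subunit, at -1.81 and the acetyltransferase Crebbp at -1.61, and at the other end stood Mbd3, a NuRD subunit, at 0.65, Dpy30, a subunit of the KMT2 complexes, at 0.61 and the BAF subunit Bcl7b at 0.42.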

How the data were processed

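PolyA RNA-seq of striatum from 60 mice was analysed. The values per gene, as deposited by the authors, are a signal: reads aligned with Bowtie 0.12.7 to mouse build m37 (mm9), counted by union exon on Ensembl models and multiplied by an edgeR 3.4.2 upper quartile factor. Those per exon, as deposited, are a score: exon counts with the same factor, rounded to whole numbers. Whole reads were recovered from the step of each library (largest deviation 6.5e-05 reads). Whether counting used strand is not given in the sources used here, so reads of overlapping or antisense genes cannot be told apart. Symbols were found for 8858 of 9066 identifiers, with lengths and gene positions from GENCODE M21 and promoters from RefSeq GRCm38.p6.

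Genes averaging at least 10 were tested with limma 3.58.1 (trend) on log2(value + 1) in R 4.3.3, exon rows averaging at least 10 with diffSplice, each with Benjamini-Hochberg adjustment over all genes and a threshold of 0.05. edgeR 4.0.16 and DESeq2 1.42.0 on recovered reads were alternatives. The limma, edgeR, diffSplice and single exon row fits were tested on simulated counts drawn without a 3' bias. DESeq2 was not tested in this way. Correlations and levels used Python 3.11.15, numpy 2.4.6 and pandas 2.3.3, and figures matplotlib 3.10.9. Each mouse is 1 library, so the p-values of the gene value fits and of rows set against their gene measure the spread between mice. Those of diffSplice do not measure this spread alone, since it pools the rows of a gene and treats rows of 1 mouse as independent. Named were members called in a test (for the bias the 5 of largest slope each way), the 3 of smallest p per test, the 5 highest and lowest by level, variation and correlation, the 5 closest pairs, and a list fixed by role; others were named after their values were seen. The members and lists were chosen with earlier results of these data known. The values of 1 member are not reported singly here.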

Additional observations from a re-analysis of the deposited data

How the results depend on the processing

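No member was called by response or for the interaction under any of the 16 and 15 alternatives run, which covered the pseudocount, the filter, edgeR, DESeq2, TMM scaling, left-out mice, depth and bias terms. By sex the count of called members was 2, but 0 in only the deeper libraries and 1 in only the shallower ones. It was 2 in the deeper libraries without mice 33 to 37. Each of these subsets holds fewer mice than the whole, and why their counts differ was not tested. The settings with only the shallower libraries or without mice 33 to 37 were chosen after seeing the data. For the 3' bias the count was 61, 0 in only the shallower libraries and between 44 and 62 under the other alternatives; the cause was not tested. Exon usage by response went from 0 to 1 member with the Simes adjustment and with single rows and a bias term. The median correlation went from 0.286 to 0.247 with CPM and TMM factors, and the median level from 9.56 to 13.6 with the longest transcript as length.

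Only a list of named genes was followed singly through the alternatives, and within it signs turned in these cases. By sex Hdac8 was at 0.0308 in the deeper libraries and 0.0357 there without mice 33 to 37. Smarca1 was at 0.0084 by sex in the deeper libraries. The interaction of Smarcb1 was -0.13 and the bias slope of Smarcd1 -0.82 in the shallower libraries. More signs turned over all members. Of 74, 30 were higher in responders in the main fit, 47 without mouse 63 and 50 with the bias term. By sex 51 were higher in females, and 29 with depth in the model. The interaction was positive for 38 members, and for 12 in only the shallower libraries. No paired analysis was possible because each mouse number occurs in 1 group only. Groups of 13 to 17 mice were not reduced one mouse at a time beyond mouse 63.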

Other observations

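Ddx3x, an X-linked RNA helicase outside the families described here, was the remaining gene called by sex, with 0.23 more in females (log2, SE 0.05, adjusted p = 0.044 from limma). Its value was between 3054 and 4892 in the 28 males outside mice 33 to 37, with a median of 3666, and between 3184 and 5967 in the 27 females, with a median of 4479. In the males numbered 33, 34, 35 and 37 it was 4549, 4575, 4231 and 4998, and in female 36 it was 3746. Why these mice stand apart was not tested.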
